A study of Danio rerio with 16 samples.

Results

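Cells sorted from the lateral hypothalamus (LH) and from the caudal hypothalamus (cH) of zebrafish were compared by bulk RNA sequencing. They were the 8 fluorescent libraries, 4 of each region, among the 16 libraries of the series, and were taken by their column names in the count table. The LH cells were GCaMP6s-positive cells of fish carrying 76A:Gal4FF and UAS:GCaMP6s, a calcium indicator, and the cH cells were GFP-positive cells of fish carrying 116A:Gal4FF and UAS:GFP. Cells without fluorescence from the same lines, called non-LH and non-cH, gave 4 libraries each and came from the rest of the brain. All fish were 1 month old, and each replicate pooled 8 whole brains, which were dissociated with papain before fluorescence-activated sorting; RNA was amplified by the low-input SMART-seq v2 protocol. Each population was thus defined by a single Gal4 driver line and its reporter, so that line, reporter and region changed together and cannot be told apart in the positive cells alone. For this reason the negative cells of the 2 lines, non-LH over non-cH, were compared as well. Their difference is given over all genes and beside some of the genes named here, not beside each.

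The hypothalamus is a ventral forebrain region that controls feeding, hormone release and arousal. In fish its lateral part lies in the inferior lobe and takes part in feeding behaviour, whereas its caudal part surrounds a recess of the ventricle and holds serotonergic and dopaminergic neurons, many of which touch the cerebrospinal fluid, beside radial glia that can divide and form neurons in the adult. Neurons are recognised by RNA-binding proteins such as Elavl3 and by synaptic proteins, radial glia by glutamate and potassium uptake, gap junctions and Notch signalling.

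Total counts ran from 33.1 M to 39.6 M in LH and from 26.8 M to 49.3 M in cH. At this like depth 19391 to 20001 gene symbols had at least 1 count in LH libraries, against 13456, 13648, 16759 and 16853 in cH libraries 1 to 4, and 18807 to 20975 in the negative cells. The cH libraries also differed more among themselves: pairwise correlations of log2 CPM (CPM is counts per 1 M counts of a library scaled with its TMM factor, not divided by gene length) were 0.933 to 0.951 within LH and 0.682 to 0.866 within cH. Of 10443 genes with a mean over 10 CPM in LH, 1744 were listed at 0 in cH library 1 and 1672 in cH library 2, against 630 and 627 in cH libraries 3 and 4. In genes detected, libraries 1 and 2 therefore stand apart from libraries 3 and 4 in cH. Libraries 1 and 2 were not alike in expression, with the lowest correlation within cH, 0.682. Library 1 correlated at 0.749 and 0.747 with libraries 3 and 4, which correlated at 0.866 with each other. Where leaving out either pair ends or gives a call for a gene named here, the adjusted p without it is given. In bulk samples fewer cells of a type and less RNA per cell cannot be told apart. No sequence or coordinates are given, and the genes are named by the symbols of the count table.

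The labels were set against defining genes. The hypothalamic factor gene nkx2.1 had 15.5, 12, 11.7 and 17.1 CPM in LH libraries 1 to 4, against 24.6, 39.1, 8.84 and 16.1 CPM in cH libraries 1 to 4, and nkx2.4b had 14.6, 19.5, 15.7 and 19.6 CPM in LH, against 28.7, 36.8, 53.1 and 19.5 CPM in cH. Both were detected in all 8 libraries and overlapped between the groups. In the negative cells nkx2.1 averaged 9.89 CPM in non-LH and 10.2 CPM in non-cH, and nkx2.4b 11 CPM in non-LH and 10.2 CPM in non-cH. The LIM-domain gene isl1 also overlapped, with 87.1, 92.8, 128 and 82.5 CPM in LH and 84.4, 339, 6.77 and 32.7 CPM in cH, and without cH libraries 1 and 2 its log2 fold change, -0.24 over all libraries, was 2.30 (adjusted p = 0.0436). Growth hormone gh1 and the peptide genes agrp and cart2 were listed at 0 in every LH and cH library, and pmch, pmchl, hcrt, oxt, avp and pomca, which encode peptides of known hypothalamic neurons, were under 5 CPM in all 8 libraries apart from pmchl at 10.6 CPM in LH library 2. Counts of gh1 and cart2 were also 0 in every non-LH and non-cH library. agrp averaged 0.0725 CPM in non-LH and 0 in non-cH, and avp 2.09 CPM in non-LH and 0.575 CPM in non-cH. The factor genes were thus detected in both groups, while the defining peptides of several known hypothalamic neurons were at or near 0 in both. For gh1, cart2 and agrp this was not particular to LH or cH.

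LH and cH cells differed in many neuronal and glial genes. Among the genes that passed, most of those of neurons, synapses, calcium signalling and ion channels, the Onecut factors and the glutamate transporters slc17a6a and slc1a6 were higher in LH. Nearly all radial glia genes, 9 of 24 Notch genes, 7 of 63 motile cilia genes and genes of serotonin and dopamine handling were lower in LH than in cH. Of 17021 genes tested with edgeR's quasi-likelihood test, 2323 (13.6%) passed an adjusted p of 0.05, 1307 (7.68%) higher in LH and 1016 (5.97%) lower in LH. The few members of the neuronal, vesicle, calcium and potassium channel lists that fell, and of the Notch and Wnt lists that rose, were shares near or under these. The lists and their members were chosen with earlier results of these data known. The share of a list set beside that of all genes is therefore descriptive and not a test. The CPM of the groups did not overlap for 31.1% of the genes tested, with LH above cH for 21.0% and below it for 10.2%. The median log2 fold change of all genes, LH over cH, was 0.17; neither this median nor that of a list below moved when genes at 0 in 1 group were set to a floor of 3 counts for that group. With 4 libraries against 4, the smallest p an exact permutation test of 1 gene can give is 0.0286, and every gene whose groups do not overlap reaches it.

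**Figure D1:**
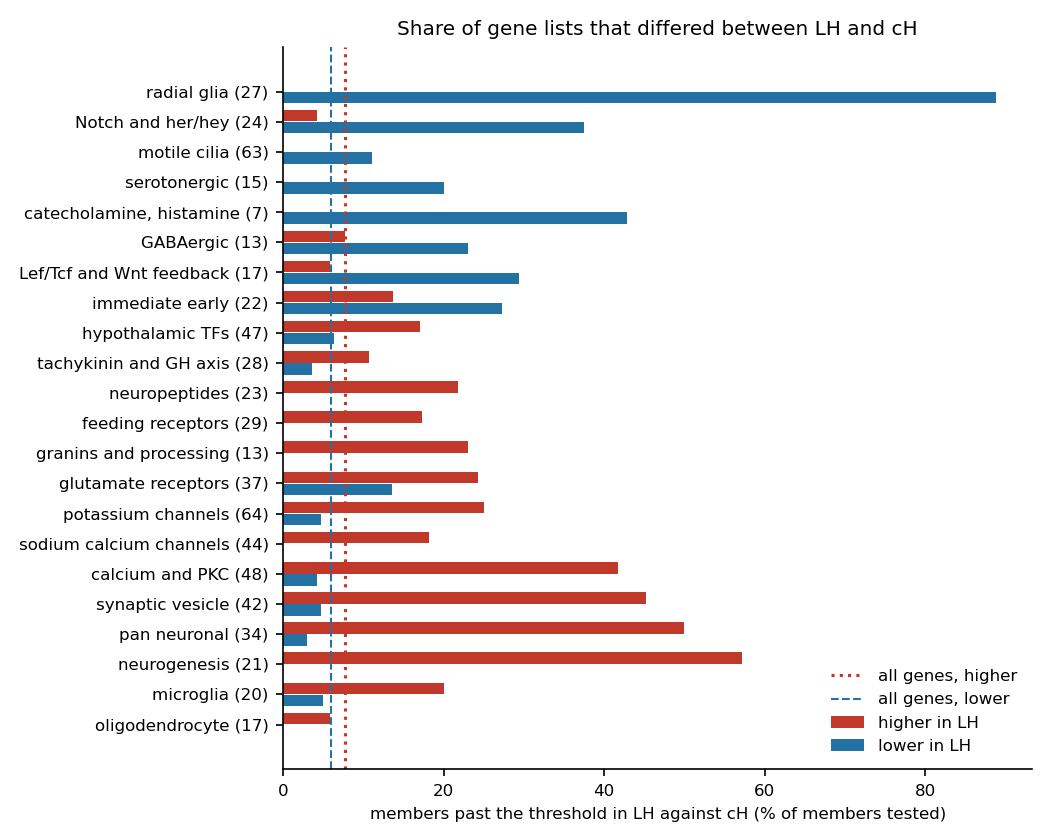
Share of the tested members of 22 gene lists that were higher (red) or lower (blue) in LH than in cH at an adjusted p under 0.05, with the number tested in brackets; the vertical lines are the shares over all 17021 genes tested, 7.68% higher and 5.97% lower. Neuronal lists extend to the higher side, and radial glia, Notch and catecholamine lists to the lower side. The lists were chosen with earlier results of these data known.

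Neuronal genes that passed were nearly all higher in LH. Of 34 tested genes shared by most neurons, 17 rose and 1 fell, with a median log2 fold change of 2.94, and of 21 genes of neuronal differentiation 12 rose and none fell, with a median of 3.04; over all genes 7.68% rose. Their summed counts took 2.25% ± 0.0774 of the library in LH and 0.356% ± 0.111 in cH for the pan-neuronal list (SD, n = 4 each), and 1.0% ± 0.0347 in LH and 0.112% ± 0.0655 in cH for the differentiation list. In the negative cells the shares were close, at 2.35% ± 0.0865 in non-LH and 2.39% ± 0.163 in non-cH for the pan-neuronal list.

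The RNA-binding protein gene elavl3, a general marker of neurons, had 1700.5, 1737, 1699.8 and 1806 CPM in LH libraries 1 to 4, against 193, 365, 34.1 and 201 CPM in cH libraries 1 to 4. All LH libraries were above all cH libraries, and cH library 3 was lowest. The log2 fold change was 3.13 ± 0.60 (SE; adjusted p = 0.0108), against -0.09 between the negative cells. Its paralog elavl4 averaged 289 ± 50 CPM in LH and 57.4 ± 27.8 CPM in cH (adjusted p = 0.00461). The tubulin-binding stathmin gene stmn1b averaged 5222 ± 618 CPM in LH and 918 ± 113 CPM in cH (log2 fold change 2.51 ± 0.16, adjusted p = 0.000177). The tubulin gene tuba1c averaged 4152 ± 326 CPM in LH and 592 ± 157 CPM in cH (adjusted p = 0.00038). All 4 of these genes had counts in every cH library.

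Among differentiation factors, sox4b had 569, 673, 521 and 526 CPM in LH, against 43.4, 17.6, 13.6 and 18.3 CPM in cH, a log2 fold change of 4.62 ± 0.42 (adjusted p = 0.000667). Its paralog sox4a averaged 1841 ± 134 CPM in LH and 219.8 ± 68 CPM in cH (adjusted p = 0.000443). Both were several times lower in cH in every library. The bHLH gene neurod2 had 29.9, 23.7, 73.3 and 46.5 CPM in LH and 0, 0.0709, 0.146 and 0 CPM in cH. It was near the floor of detection in cH, and it was at 162 CPM in non-LH and 192 CPM in non-cH, above both positive groups.

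Genes of the synaptic vesicle cycle also rose in LH where they passed, with few exceptions: 19 of 42 tested rose in LH and 2 fell, with a median of 2.90. The shares over all genes were 7.68% and 5.97%. The SNARE gene snap25a had 1929, 1632, 1975 and 1836 CPM in LH, against 145, 249.5, 27.3 and 30.5 CPM in cH, with a log2 fold change of 4.03 ± 0.75 (adjusted p = 0.01). The SNARE partner stxbp1a averaged 499.7 ± 75.6 CPM in LH and 25.3 ± 15 CPM in cH (adjusted p = 0.00119). The active-zone scaffold gene bsnb averaged 333 ± 5.44 CPM in LH and 28.7 ± 9.77 CPM in cH (adjusted p = 0.000648). The calcium sensor syt1a differed less, at 394 ± 30.8 CPM in LH and 154 ± 73 CPM in cH, and its adjusted p of 0.042 was over 0.05 without any of 6 single libraries, up to 0.106 without LH library 1. cH library 2 held the highest summed share of vesicle genes among cH libraries, 0.169, 0.342, 0.142 and 0.169% in cH libraries 1 to 4, all below the 0.844% to 0.948% of LH.

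**Figure D2:**
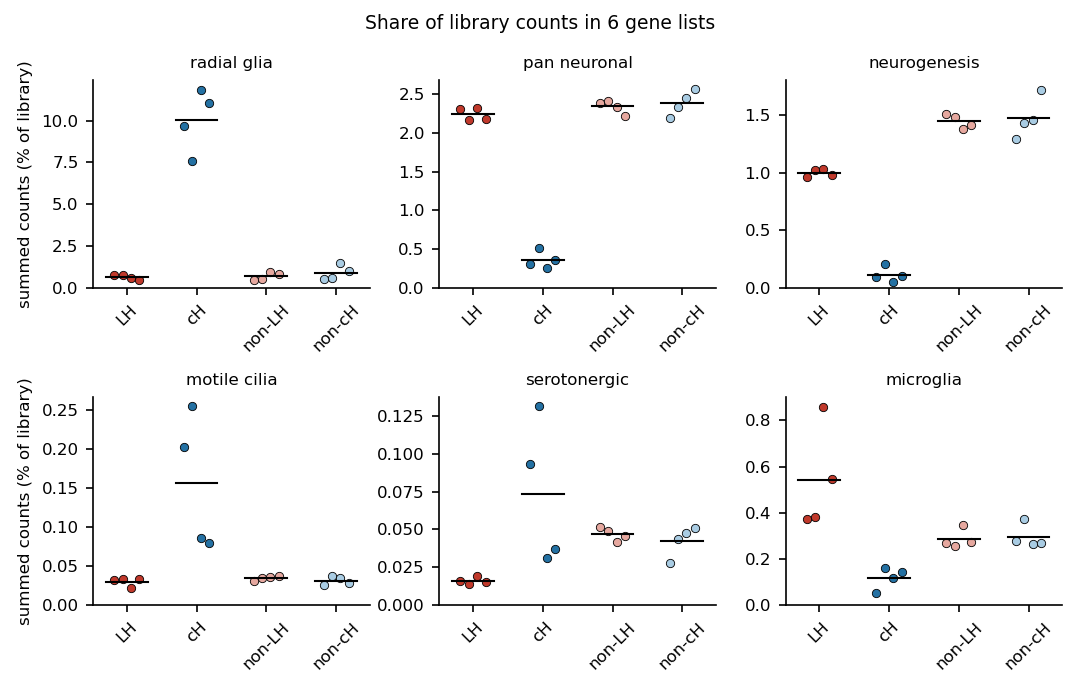
Summed counts of 6 gene lists as a percentage of each library, for LH, cH, non-LH and non-cH; each point is 1 library and the line is the mean of 4. Radial glia genes take 7.56% to 11.9% of cH libraries and under 1.51% of all others, while pan-neuronal genes are at 2.17% to 2.32% in LH and at 0.257% to 0.511% in cH.

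Radial glia genes had the largest share of members past the threshold among the lists. Of 27 tested, none rose and 24 fell in LH relative to cH, with a median log2 fold change of -3.51. Over all genes 5.97% fell. They took 0.755, 0.777, 0.572 and 0.48% of counts in LH libraries 1 to 4 and 9.66, 7.56, 11.9 and 11.1% in cH libraries 1 to 4. The negative cells were at 0.47% to 0.928% in non-LH and 0.544% to 1.5% in non-cH. All 4 cH libraries were above the 12 others, and the part of radial glia RNA in the other differences between LH and cH was not tested.

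The glial glutamate transporter gene slc1a2b had 1746, 1871, 1436 and 1320.1 CPM in LH, against 35724, 23956, 51357 and 37751 CPM in cH. The lowest cH library was over 10 times the highest LH library. The log2 fold change was -4.55 ± 0.27 (adjusted p = 0.000169), against -0.69 between the negative cells (adjusted p = 0.827). Glutamine synthetase glula averaged 1825 ± 753 CPM in LH and 24790.1 ± 7392 CPM in cH, and the connexin gene cx43, which forms glial gap junctions, averaged 325 ± 127 CPM in LH and 10044 ± 2450.3 CPM in cH. Between the negative cells the log2 fold changes of glula and cx43 were -0.59 and -0.93, and neither passed. The fatty-acid-binding protein gene fabp7a averaged 398 ± 132 CPM in LH and 10323 ± 5019 CPM in cH. The sodium pump subunit atp1b4 averaged 164 ± 36 CPM in LH and 3810.0 ± 948 CPM in cH (log2 fold change -4.54 ± 0.28), and the stem-cell factor sox2 averaged 91.6 ± 21.6 CPM in LH and 562 ± 116 CPM in cH. All 6 of these genes fell in LH, with no overlap between the groups. The filament gene gfap was also lower, with 28.2, 30.4, 31 and 32.5 CPM in LH, against 353, 233, 176 and 156 CPM in cH. The inhibitor of differentiation id1 was even within groups, with 122, 139, 125 and 125 CPM in LH and 988, 1294, 1868 and 1247 CPM in cH (log2 fold change -3.40 ± 0.22, adjusted p = 0.0002).

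Genes of Notch signalling, which keeps radial glia uncommitted, were mostly lower in LH where they passed: of 24 tested, 9 fell and 1 rose. The shares over all genes were 5.97% and 7.68%. The receptor gene notch3 averaged 57.5 ± 13.5 CPM in LH and 720.1 ± 362 CPM in cH (log2 fold change -3.65 ± 0.44, adjusted p = 0.00196). The Notch ligand gene jag1b had 23.2, 29.5, 13.4 and 17.6 CPM in LH, against 414, 167, 278 and 315 CPM in cH. Its log2 fold change was -3.81 ± 0.39. The Notch effectors hey1 and her4.2 averaged 13.2 and 32.8 CPM in LH, against 248 and 138 CPM in cH. The other ligand gene jag2a went the other way, with 4.41, 17.2, 5.92 and 4.03 CPM in LH, against 0 in all cH libraries, at least 349.6-fold higher in LH when cH is set to a floor of 3 counts for the group. Non-LH held 1.11 CPM of jag2a and non-cH held 4.34 CPM. Of 24 cell-cycle genes tested none passed in edgeR's test, while 7 had an unadjusted p under 0.05 and DESeq2 called 5, all lower in LH. Without cH libraries 1 and 2 edgeR called 3 higher and 6 lower in LH. Without cH libraries 3 and 4 it called 2 higher and 0 lower. Between the negative cells the median log2 fold change of the cell-cycle list was 0.47, and none passed. The gene mki67, a marker of dividing cells, was at 82.9, 67.9, 66.9 and 94.1 CPM in LH and 62.9, 39.1, 14 and 14.1 CPM in cH (adjusted p = 0.202); without cH libraries 1 and 2 the log2 fold change was 2.47 with an adjusted p of 0.00154. The replication genes mcm3 and mcm6 averaged 68.3 and 61.6 CPM in LH, against 164 and 153 CPM in cH; without cH libraries 1 and 2 the adjusted p of mcm3 was 0.0405.

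Few motile cilia genes passed. Of 63 tested, 7 fell in LH, set against 5.97% of all genes, and none rose; 6 of the 63 had a positive log2 fold change, and the median was -3.08. The ciliary factor foxj1a had 20.8, 6.15, 6.1 and 4.88 CPM in LH, against 231, 143, 45.6 and 56.2 CPM in cH (adjusted p = 0.0137). Its log2 fold change was -3.65, against 1.40 between the negative cells. Its paralog foxj1b had 0.17, 1.39, 2.42 and 1.59 CPM in LH, against 284, 387, 15.3 and 14.3 CPM in cH. In both, cH libraries 1 and 2 were far above cH libraries 3 and 4, and these were above all LH libraries. The adjusted p of foxj1b, 0.0152, was 0.0512 without LH library 4 and 0.0536 without LH library 2. The EF-hand gene efcab6 was at 0 in all LH libraries and at 40.6, 5.35, 10.1 and 20.4 CPM in cH, at least 972-fold lower in LH. The regulatory factors rfx2 and rfx4 averaged 45.1 and 6.4 CPM in LH, against 202 and 109 CPM in cH.

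Transmitter genes set LH and cH apart. In LH the vesicular glutamate transporter slc17a6a, which loads glutamate into vesicles, had 315, 344, 283 and 457 CPM, against 0, 0, 0.0728 and 0 CPM in cH, where 2 counts were found over the 4 libraries. The ratio of LH to cH was 23419, with a counting interval of 6483 to 193384 (95%, exact binomial; it covers counting error only). The negative cells were at 112 CPM in non-LH and 116 CPM in non-cH, a log2 difference of -0.04. Its paralog slc17a6b did not pass, with 45.2, 53.8, 63.3 and 61.1 CPM in LH and 28.1, 25.4, 0 and 11.2 CPM in cH (adjusted p = 0.51). The neuronal glutamate transporter slc1a6 had 57.5, 63.3, 55 and 122 CPM in LH and 0 in all cH libraries, at least 3361-fold higher in LH. It was low in both negative groups, at 1.15 CPM in non-LH and 0.479 CPM in non-cH.

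GABA genes went both ways. The synthesis gene gad1b had 121, 129.6, 231 and 142 CPM in LH, against 0, 0, 0.0728 and 7.31 CPM in cH; the groups did not overlap, and the adjusted p was 0.0859. The other synthesis gene gad2 had 159, 129.5, 275 and 208 CPM in LH, against 434, 858, 28.2 and 136 CPM in cH, and the vesicular transporter slc32a1 had 73.1, 66.6, 90.6 and 85.7 CPM in LH, against 79.7, 129, 12.6 and 16.2 CPM in cH. For both, cH libraries 1 and 2 were above cH libraries 3 and 4 and the groups overlapped. Without cH libraries 1 and 2 slc32a1 was higher in LH (log2 fold change 2.45, adjusted p = 0.00165), and without cH libraries 3 and 4 gad2 was lower in LH (log2 fold change -1.74, adjusted p = 0.0262). gad1b was higher in LH under both omissions, with adjusted p of 0.0402 and 0.00197. The uptake transporters moved opposite ways: slc6a1b averaged 145 ± 33 CPM in LH and 2229 ± 1082 CPM in cH (log2 fold change -3.94 ± 0.36), slc6a11b averaged 55.4 ± 12.7 CPM in LH and 1251 ± 274 CPM in cH (log2 fold change -4.50 ± 0.26), and slc6a1a averaged 306 ± 21.7 CPM in LH and 148 ± 27.3 CPM in cH (log2 fold change 1.05 ± 0.19, adjusted p = 0.00948). The GABA-degrading transaminase abat had 58.1, 38.4, 21.4 and 27.5 CPM in LH, against 229, 129, 156 and 156 CPM in cH (adjusted p = 0.00777). The negative cells of the 2 lines differed in none of these genes at an adjusted p of 0.05.

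The monoamine genes that passed were lower in LH. Tryptophan hydroxylase tph1a, the first enzyme of serotonin synthesis, had 1.58, 6.95, 2.14 and 3.09 CPM in LH libraries 1 to 4, against 364, 622, 40.5 and 45.3 CPM in cH libraries 1 to 4. All cH libraries were above all LH libraries, with cH libraries 1 and 2 at least 8 times cH libraries 3 and 4. The log2 fold change was -6.28 ± 1.14 (adjusted p = 0.00948), against -0.48 between the negative cells. Its paralogs tph1b and tph2 were sparse: tph1b was at 0 in all LH libraries and at 0, 25.1, 0.0364 and 0 CPM in cH, and tph2 had 1.3, 0.535, 0 and 0 CPM in LH and 0, 0, 0 and 4.22 CPM in cH.

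The tyrosine hydroxylase paralog th2 had 0.113, 0, 0.423 and 0 CPM in LH, against 167, 585, 56.3 and 64.8 CPM in cH, a log2 fold change of -10.67 ± 1.71 (adjusted p = 0.00618). The other paralog, th, was at 0 in all cH libraries and in LH libraries 1 to 3. The dopamine transporter slc6a3 had 2.49, 1.12, 2.36 and 8.19 CPM in LH, against 105, 37.2, 30.8 and 9.34 CPM in cH. Its adjusted p, 0.0403, was over 0.05 without any of 5 single libraries, up to 0.122 without LH library 1, and 0.0971 without cH libraries 1 and 2. GTP cyclohydrolase gch1, which makes the cofactor of these hydroxylases, had 3.11, 3.98, 2.14 and 2.29 CPM in LH, against 84.2, 100.4, 22.5 and 63 CPM in cH (log2 fold change -4.55 ± 0.62). Monoamine oxidase mao averaged 48.3 ± 13.6 CPM in LH and 308 ± 146 CPM in cH (log2 fold change -2.67 ± 0.39), and comtb, a catechol methyltransferase, averaged 1.65 ± 0.799 CPM in LH and 42.5 ± 22.9 CPM in cH. The vesicular monoamine transporter slc18a2 and the serotonin transporter slc6a4b had no overlap between groups but did not pass: slc18a2 was at 0, 2.65, 0 and 0 CPM in LH and 24, 29.2, 4.95 and 8.32 CPM in cH, and slc6a4b at 0, 1.92, 0 and 0 CPM in LH and 26.5, 11.9, 3.89 and 20.4 CPM in cH. The other serotonin transporter gene, slc6a4a, had a log2 fold change of 1.90 and did not pass (adjusted p = 0.683). LH library 4 stood high for it at 9.73 CPM, and without 1 library its log2 fold change ran from -1.29 to 2.59. The decarboxylase ddc had 7.02, 0.0535, 0 and 7.42 CPM in LH and 36.4, 105, 12.3 and 20 CPM in cH (adjusted p = 0.287). Of the lists, 3 of 15 serotonergic genes and 3 of 7 catecholamine and histamine genes tested fell in LH, set against 5.97% of all genes. None rose, and in the negative cells none passed. A positive log2 fold change was found for 5 of the 15 and 2 of the 7.

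**Figure D3:**
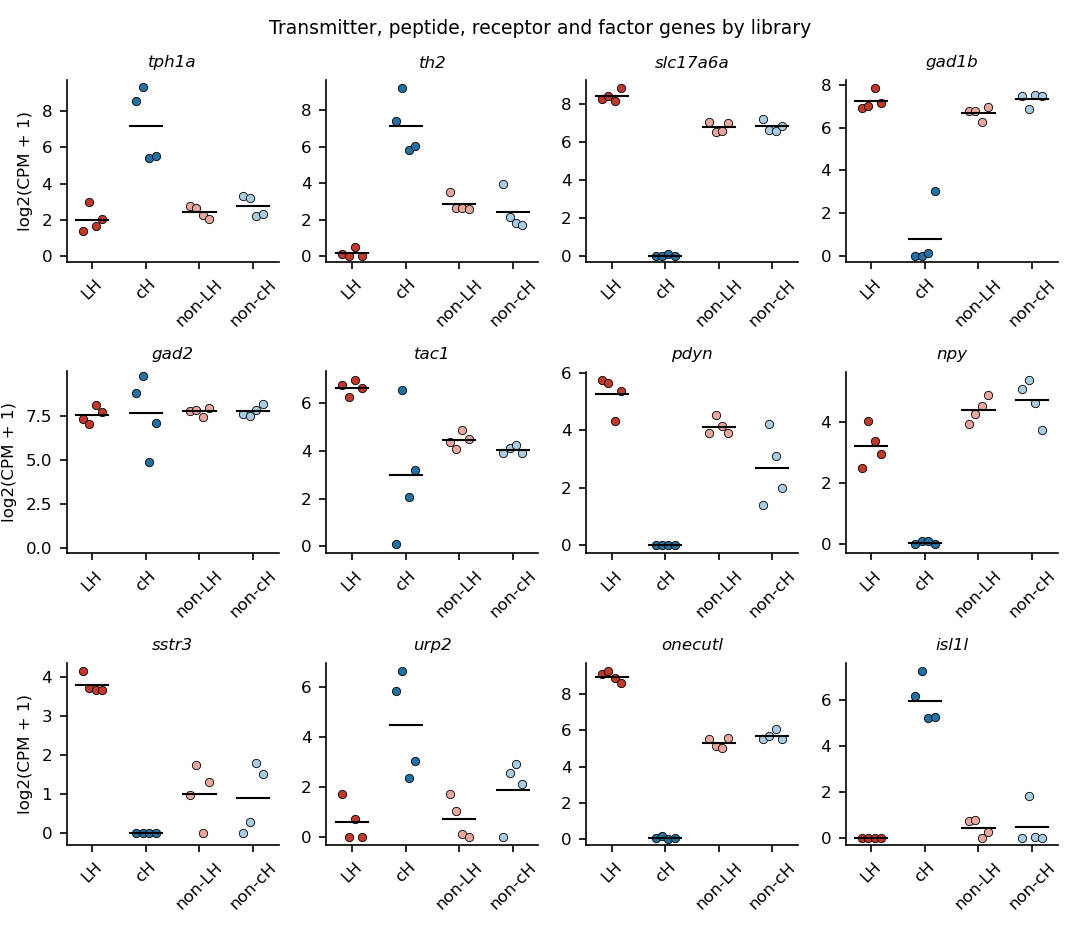
Expression of 12 genes in every library as log2(CPM + 1), for LH, cH, non-LH and non-cH; each point is 1 library and the line is the mean. tph1a, th2 and isl1l are higher in cH, and urp2 is higher in every cH library but did not pass. slc17a6a, pdyn, npy, sstr3 and onecutl are near 0 in cH, and gad2 and tac1 overlap.

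Peptide and receptor genes were higher in LH where they passed. Of 23 neuropeptide genes tested, 5 rose, set against 7.68% of all genes, and none fell (median 2.16). Prodynorphin pdyn, the precursor of an opioid peptide, had 53.5, 49.5, 19.1 and 40.8 CPM in LH and 0 in all cH libraries, at least 1816-fold higher in LH. Neuropeptide Y, npy, had 4.64, 15.3, 9.27 and 6.77 CPM in LH, against 0, 0.0709, 0.0728 and 0 CPM in cH (adjusted p = 0.0147); it was higher still in the negative cells, at 20.4 CPM in non-LH and 27.2 CPM in non-cH. The peptide genes vip and uts1, which encodes urotensin 1, averaged 10.7 and 7.36 CPM in LH and were 0 in all cH libraries. uts1 was at 21.4 CPM in non-LH and 35.6 CPM in non-cH. The substance P precursor tac1 did not pass: it had 106, 75.5, 125 and 97.4 CPM in LH, against 0.0621, 91.7, 3.17 and 8.07 CPM in cH, and cH library 2 lay within the LH range (adjusted p = 0.503). Without cH libraries 1 and 2 its log2 fold change was 4.16 with an adjusted p of 0.00203. The prohormone vgf gave the same picture, with 126, 128, 147 and 115 CPM in LH and 0.683, 146, 0 and 0.0451 CPM in cH; without cH libraries 1 and 2 its adjusted p was 0.000155.

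Other peptide genes overlapped or did not pass. The enkephalin precursors penka and penkb averaged 122 and 38.3 CPM in LH, against 11.4 and 18.1 CPM in cH, and without cH libraries 1 and 2 penkb passed (adjusted p = 0.0122). The gene trh, which encodes thyrotropin-releasing hormone, averaged 69.6 ± 30.5 CPM in LH and 21.1 ± 14.3 CPM in cH. Somatostatin sst1.1 averaged 6.69 ± 2.08 CPM in LH and 0.952 ± 1.17 CPM in cH, and sst3 averaged 5.6 ± 2.54 CPM in LH and 30 ± 39.5 CPM in cH; without cH libraries 3 and 4 sst3 was lower in LH (adjusted p = 0.0398). The tachykinin 3 genes tac3a and tac3b had means of 5.64 and 0.221 CPM in LH, against 5.03 and 0 CPM in cH. Galanin galn was at 1.32 ± 1.23 CPM in LH and 1.06 ± 1.54 CPM in cH. The urotensin-related peptide gene urp2 had 2.32, 0, 0.664 and 0 CPM in LH, against 56.2, 96.9, 4.15 and 7.31 CPM in cH. The groups did not overlap and the adjusted p was 0.132. None of 8 tested genes listed for neurons that touch the cerebrospinal fluid passed in edgeR's test. The histidine decarboxylase gene hdc, which makes histamine, had 4.81, 8.31, 13.6 and 7.22 CPM in LH, against 0, 12.4, 0.182 and 0 CPM in cH. cH library 2 lay within the LH range and the adjusted p was 0.782; without cH libraries 1 and 2 it was 0.0371, higher in LH. Insulin-like growth factor igf2b was lower in LH, at 16.1 ± 4.76 CPM in LH and 59.5 ± 23 CPM in cH (adjusted p = 0.0299), with an adjusted p of up to 0.0927 without 1 library.

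Among 13 peptide-processing genes tested, 3 rose, set against 7.68% of all genes, and none fell. The number that rose was 1 with DESeq2 size factors in edgeR and 8 with voom. Carboxypeptidase cpe averaged 1031 ± 142 CPM in LH and 164 ± 174 CPM in cH (adjusted p = 0.0493), and the proconvertase inhibitor pcsk1nl averaged 502 ± 45.9 CPM in LH and 141 ± 117 CPM in cH (adjusted p = 0.0477). Both passed 0.05 in the full set only by a little: leaving out any of 7 of the 8 libraries gave adjusted p over 0.05, up to 0.107 for cpe and 0.109 for pcsk1nl, and without cH libraries 3 and 4 pcsk1nl had 0.085. The release factor cadpsb averaged 273 ± 30.2 CPM in LH and 19.7 ± 17.5 CPM in cH (adjusted p = 0.0079). The granin genes chga and scg2b and the proconvertase pcsk1 averaged 105, 822 and 114 CPM in LH, against 15.1, 276 and 33.8 CPM in cH, and did not pass. Without cH libraries 1 and 2 scg2b passed (log2 fold change 4.43, adjusted p = 0.000277), as did pcsk1 (adjusted p = 0.0138), and without cH libraries 3 and 4 chga passed (adjusted p = 0.0166).

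Receptors for feeding-related peptides rose in 5 of 29 tested, set against 7.68% of all genes, and fell in none. Each of the 5 had all cH libraries at 0. The neuropeptide Y receptor npy8ar had 11.9, 6.52, 13.3 and 3.86 CPM in LH, at least 381-fold higher than cH, and npy7r had 3.28, 5.11, 0.634 and 1.29 CPM in LH, at least 115-fold higher. npy7r had an adjusted p of 0.0155, and 0.055 without LH library 1. The galanin receptor galr1a had 21.6, 5.61, 26.3 and 8.51 CPM in LH, the cannabinoid receptor cnr1 had 0.651, 7.62, 6.82 and 8.39 CPM in LH, and the thyrotropin-releasing-hormone receptor trhr2 had 4.61, 3.98, 4.23 and 7.64 CPM in LH. cnr1 lost its call without LH library 3 (adjusted p = 0.0569), library 2 or library 4. In the negative cells cnr1 was at 3.77 CPM in non-LH and 0.94 CPM in non-cH, the same direction without overlap (adjusted p = 0.754). Of the somatostatin receptors, sstr3 had 16.8, 12.1, 11.7 and 11.7 CPM in LH and sstr1b averaged 7.43 CPM in LH, with all cH libraries at 0, whereas sstr1a was at 91.6, 79.4, 52.4 and 47.8 CPM in LH and 0, 4.82, 4.37 and 6.22 CPM in cH, without overlap (adjusted p = 0.0859, 0.00203 without cH libraries 1 and 2). The tachykinin receptor tacr1a had 1.9, 0.535, 0.302 and 2.51 CPM in LH and 0 in all cH libraries (adjusted p = 0.0195, 0.0645 without LH library 1, 0.0525 without cH libraries 1 and 2 and 0.0518 without cH libraries 3 and 4), and tacr3a averaged 1.53 CPM in LH and 1.58 CPM in cH. Of the growth hormone axis, the receptor genes ghra and ghrb had means of 9.09 and 9.8 CPM in LH, against 27.2 and 10.6 CPM in cH, and ghrhrb averaged 13 CPM in LH and 3.36 CPM in cH.

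Calcium and kinase genes were mostly higher in LH where they passed: 20 of 48 tested rose and 2 fell (median 2.33), set against 7.68% and 5.97% of all genes. Protein kinase C beta, prkcbb, had 1756, 1532, 1491 and 1575 CPM in LH, against 238, 119, 26.2 and 36.6 CPM in cH (log2 fold change 3.92 ± 0.70, adjusted p = 0.00928), while protein kinase C alpha, prkca, had 26.1, 26.8, 25.5 and 30.2 CPM in LH, against 111, 114, 152 and 94.8 CPM in cH, a log2 fold change of -2.12 ± 0.27 (adjusted p = 0.00236). Both prkcbb and prkca were clear of overlap and went opposite ways. The calmodulin-binding gene nrgna averaged 200.1 ± 22.1 CPM in LH and 2.28 ± 1.59 CPM in cH, against 14.6 CPM in non-LH and 13.2 CPM in non-cH. The calcium pump atp2b2 averaged 388 ± 45.2 CPM in LH and 40 ± 19.9 CPM in cH. The CaM kinase gene camk2a had 1264, 1523, 1426 and 1506 CPM in LH, against 0.124, 29.9, 0.0728 and 1.87 CPM in cH; its adjusted p of 0.0327 was over 0.05 without any of 5 single libraries, up to 0.0788 without cH library 4, and 0.07 without cH libraries 3 and 4. The inositol-trisphosphate receptor itpr2 fell, with 18.4, 27.5, 1.51 and 22.9 CPM in LH and 209, 94.3, 205 and 171 CPM in cH (adjusted p = 0.0249, 0.0761 without LH library 1 and 0.0779 without cH libraries 3 and 4). The ryanodine receptor ryr3 was at 48.7 ± 9.43 CPM in LH and 10.2 ± 10.8 CPM in cH (adjusted p = 0.0877, 0.00774 without cH libraries 3 and 4). The adducin gene add3b, a substrate of such kinases, had 153, 153, 162 and 159 CPM in LH, against 19.4, 34.5, 14.6 and 22.2 CPM in cH (log2 fold change 2.79 ± 0.32).

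Glutamate receptor genes went both ways: 9 of 37 tested rose and 5 fell, set against 7.68% and 5.97% of all genes. The AMPA receptor subunit gria3a had 48.3, 56.2, 67.3 and 69.8 CPM in LH and 0 in all cH libraries, at least 2669-fold higher in LH, and gria2a averaged 15.9 ± 1.18 CPM in LH and 0.0893 ± 0.0695 CPM in cH. The subunit gria4a had 60.1, 99.5, 37.6 and 30.2 CPM in LH, against 484, 361, 1049 and 972 CPM in cH, a log2 fold change of -3.66 ± 0.52 (adjusted p = 0.00391). The subunit gria2b overlapped, with 741, 589, 624 and 676 CPM in LH and 627, 533, 671 and 440.0 CPM in cH. The subunits of this receptor thus differed in opposite directions between the populations. The NMDA receptor subunit grin1a had 885, 836, 745 and 900.4 CPM in LH, against 9.0, 39.5, 2.33 and 40.2 CPM in cH (log2 fold change 5.21 ± 0.88). The metabotropic receptors grm2b and grm3 averaged 82.9 and 13.1 CPM in LH, against 585 and 141 CPM in cH. In the negative cells grm3 was at 6.25 CPM in non-LH and 10.9 CPM in non-cH, the same direction without overlap (adjusted p = 0.658). Potassium channel genes rose in 16 of 64 and fell in 3, set against 7.68% and 5.97% of all genes. The voltage-gated kcnc3b averaged 25.5 ± 2.6 CPM in LH with all cH libraries at 0, and kcna2b averaged 31.6 ± 10.3 CPM in LH with 2 counts over cH. The inward rectifiers kcnj10a and kcnj13 fell: kcnj10a, which glia use to take up potassium, had 21.1, 33.3, 15.9 and 2.61 CPM in LH and 206, 176, 125 and 134 CPM in cH (adjusted p = 0.0167, 0.0573 without LH library 3), and kcnj13 had 0, 0, 0 and 0.0996 CPM in LH and 13.9, 6.41, 16.4 and 43.4 CPM in cH. Sodium and calcium channel genes rose in 8 of 44, set against 7.68% of all genes, and fell in none. Among them cacnb1, an auxiliary calcium channel subunit, was at 379 ± 28.5 CPM in LH and 20.7 ± 8.45 CPM in cH. GABA and glycine receptor genes rose in 4 of 23 tested, set against 7.68% of all genes, and fell in none. The number that rose was 8 with DESeq2, 16 with voom and 0 with a block for the replicate number.

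**Figure D4:**
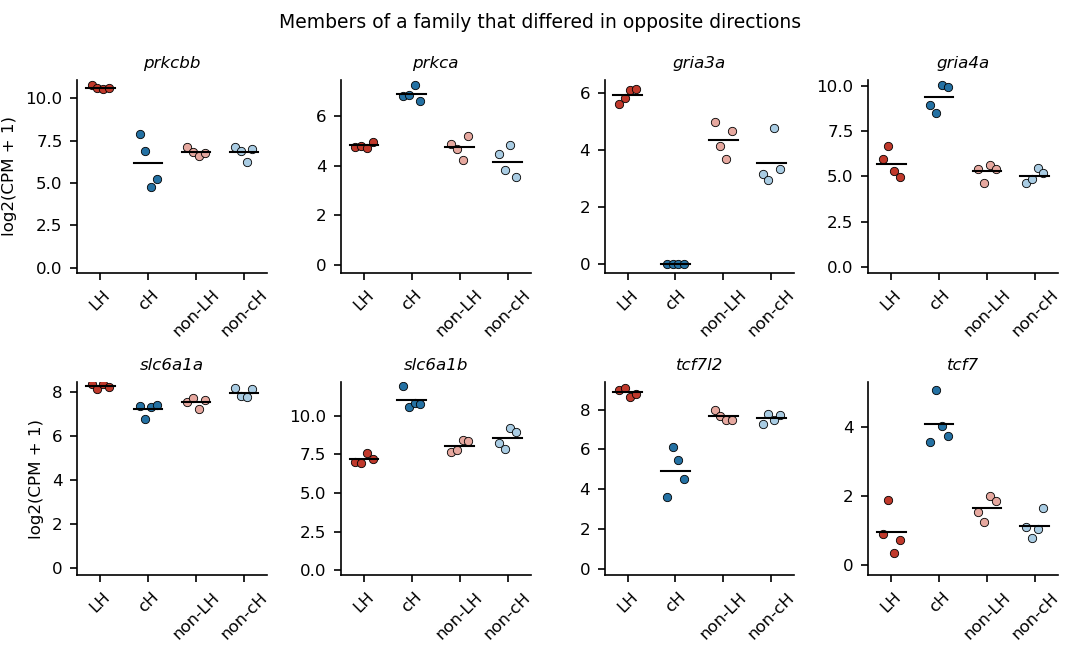
Members of 4 gene families that differed in opposite directions, as log2(CPM + 1) per library with group means as lines. prkcbb, gria3a, slc6a1a and tcf7l2 were higher in LH, and prkca, gria4a, slc6a1b and tcf7 were lower in LH.

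Of 47 hypothalamic factor genes tested, 8 rose, set against 7.68% of all genes, and 3 fell, a share near the 5.97% of all genes, with a median of 0.37. The Onecut family, factors that shape neuronal identity, was higher in LH in all 4 members named here: onecutl had 552, 599, 472 and 378 CPM in LH, against 0.0621, 0.142, 0 and 0.0451 CPM in cH (log2 fold change 12.91 ± 0.72, adjusted p = 0.000154), and the negative cells were at 39.3 CPM in non-LH and 51.4 CPM in non-cH. onecut3b had 35.5, 54, 49.2 and 71.4 CPM in LH, onecut3a averaged 29 CPM in LH and onecut1 averaged 4.64 CPM in LH, with all cH libraries at 0. The zinc-finger gene bnc2 had 1289, 1305, 1055 and 1262 CPM in LH, against 0, 0.0709, 0.0728 and 0.18 CPM in cH. It was also at 139 CPM in non-LH and 139 CPM in non-cH. The LIM factor lhx9 had 233, 209, 219.6 and 167 CPM in LH, against 4.47, 0.177, 0.0728 and 5.01 CPM in cH (adjusted p = 0.0139). The nuclear receptor nr5a2 and the homeobox gene vax2 averaged 14.3 and 6.31 CPM in LH with cH at 0, and gsx1 averaged 71 ± 17.3 CPM in LH and 14 ± 8.57 CPM in cH (adjusted p = 0.0237, 0.0802 without LH library 3).

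Of the factors that fell, isl1l had 0 in all LH libraries and 71.7, 149.8, 35.7 and 37.2 CPM in cH, at least 3374-fold lower in LH, and the negative cells were at 0.4 CPM in non-LH and 0.642 CPM in non-cH. The forkhead gene foxb1a averaged 18 ± 7.61 CPM in LH and 79.6 ± 6.92 CPM in cH, close to 79.7 CPM in non-LH and 91.3 CPM in non-cH. The homeobox gene bsx had 3.0, 0.535, 0.846 and 2.09 CPM in LH, against 18.2, 53.8, 11.4 and 10.7 CPM in cH (adjusted p = 0.0355, 0.112 without LH library 3 and 0.0696 without cH libraries 1 and 2). The factor genes rx3, otpa, otpb and fezf2 did not pass or were not tested: rx3 had 17.9, 23.6, 22.5 and 55.1 CPM in LH and 0, 0, 7.79 and 0 CPM in cH, otpa averaged 15.2 CPM in LH and 4.13 CPM in cH, otpb averaged 7.86 CPM in LH and 0.372 CPM in cH, and fezf2 was at 0 in LH and averaged 0.819 CPM in cH. Without cH libraries 3 and 4 rx3, otpa and otpb were higher in LH, with adjusted p of 0.00628, 0.0179 and 0.00735.

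Among Wnt genes, 5 of 17 tested fell in LH, set against 5.97% of all genes, and 1 rose. The Wnt effector lef1, which marks caudal hypothalamic progenitors of zebrafish, overlapped, with 33.3, 38.7, 80.2 and 49.9 CPM in LH and 13, 163, 42.3 and 48.2 CPM in cH (adjusted p = 0.824), and was higher in the negative cells, at 251 CPM in non-LH and 309.6 CPM in non-cH. Its relatives moved in opposite directions: tcf7l2 had 512, 548, 390.4 and 435 CPM in LH, against 11.3, 69.8, 42.7 and 21.7 CPM in cH (log2 fold change 3.70 ± 0.55), and tcf7 had 0.849, 2.73, 0.272 and 0.647 CPM in LH, against 10.9, 32.8, 15.5 and 12.3 CPM in cH (log2 fold change -3.99 ± 1.05). tcf7 and tcf7l1a, at 10 ± 6.11 CPM in LH and 72.2 ± 35.9 CPM in cH, passed in the full set with adjusted p of 0.0373 and 0.0288, and reached 0.124 and 0.0889 without 1 library; without cH libraries 3 and 4 tcf7l1a also had 0.124. The Wnt antagonist sfrp5 and the receptor-removing ligase znrf3 averaged 3.86 and 10.5 CPM in LH, against 39.3 and 78.5 CPM in cH.

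Other genes were named only for the size of their difference. Higher in LH were pde11a, a cyclic-nucleotide phosphodiesterase, with 37.7, 51.1, 70.3 and 71.4 CPM in LH, camk2n1b, an inhibitor of CaM kinase II, with 54.7, 44.7, 66 and 56.7 CPM, gfra2b, a receptor subunit for GDNF-family ligands, with 49.3, 64.3, 63.4 and 33.2 CPM, kita, a receptor tyrosine kinase, with 59, 53, 45.3 and 34.2 CPM, and klhl14, a kelch-like gene, with 54, 46, 44.8 and 38.1 CPM. All 5 were at 0 in every cH library. kita was near 0 in the negative cells (0.688 CPM in non-LH and 3.53 CPM in non-cH), whereas gfra2b was at 41.3 CPM in non-LH and 46.9 CPM in non-cH. Lower in LH was stm, a matrix gene known from otoliths, with 5.77, 3.53, 12 and 3.34 CPM in LH and 809.8, 825, 88.4 and 528 CPM in cH. The genes shisa2, aebp1, c2cd4a and ifit11, an interferon-induced gene, averaged 0.238, 0.981, 1.25 and 0.347 CPM in LH, against 28.9, 95.1, 96.9 and 45.2 CPM in cH. Each of these 4 lost its call without one of several libraries, with adjusted p up to 0.13, 0.0811, 0.0917 and 0.12. Without cH libraries 1 and 2 c2cd4a had 0.0594, and without cH libraries 3 and 4 shisa2, aebp1 and ifit11 had 0.0822, 0.095 and 0.0597. In all, 128 genes at 0 in every cH library had a mean of at least 10 CPM in LH and counts in all 4 LH libraries, and 99 of them had counts in every non-cH library. The reverse held for 5 genes, 3 with counts in every non-LH library. Single libraries also lacked counts more often in cH. Of 10443 genes averaging over 10 CPM in LH, 627 to 1744 were at 0 per cH library. Of 10387 genes averaging over 10 CPM in cH, 152 to 273 were at 0 per LH library. The part of this lower detection in the contrast of 128 with 5 genes was not tested.

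Some markers of other cells also differed. Microglial genes rose in 4 of 20 tested and fell in 1, set against 7.68% and 5.97% of all genes. Their summed share was 0.373, 0.38, 0.86 and 0.546% in LH libraries 1 to 4 and 0.0517, 0.161, 0.116 and 0.141% in cH libraries 1 to 4. The antigen-presentation gene cd74a had 772, 729, 2016 and 1177 CPM in LH, against 12.9, 115, 86.5 and 177 CPM in cH, and the lectin-binding gene lgals3bpb averaged 1421 ± 576 CPM in LH and 162 ± 101 CPM in cH. The lysosomal gene hexb went the other way, with 99.4 ± 18.6 CPM in LH and 400.2 ± 113 CPM in cH. Oligodendrocyte genes took 1.15, 1.48, 0.352 and 0.247% of LH libraries and 0.558, 0.122, 0.533 and 0.804% of cH libraries, and of 17 tested only cnp, a myelin enzyme, rose. Endothelial and mural genes rose in 1 of 14, col1a2; for both lists this is a share near the 7.68% of all genes. The endothelial and mural genes fell in 3 of 14, set against 5.97% of all genes, among them dcn, with 21.2 CPM in LH and 400.2 CPM in cH. col1a2, a fibroblast collagen, was at 32.1 CPM in LH and 0.0381 CPM in cH, against 85.7 ± 54.6 CPM in non-LH and 293 ± 478 CPM in non-cH. The carbonic anhydrase cahz, known from red blood cells, had 65.2, 60.4, 69.8 and 31.3 CPM in LH and 1035, 851, 991 and 949.9 CPM in cH. No other red-cell gene passed. Among 4 red-cell genes tested, 1 had all LH libraries below all cH libraries, and 3 had all LH libraries above them. Over all genes tested these shares were 10.2% below and 21.0% above. Of the 16 red-cell genes listed, 11 were at 0 in all cH libraries and 7 in all LH libraries. Over all 30502 symbols 10230 were at 0 in all cH libraries and 7144 in all LH libraries. Lymphoid genes rose in 2 of 5 tested, set against 7.68% of all genes, and fell in none. Their mean summed share was not higher in LH, at 0.00327% in LH and 0.00404% in cH. Of the 12 lymphoid genes listed, 9 were at 0 in all cH libraries and 5 in all LH libraries. Of genes placed in other brain regions, the telencephalic eomesb had 5.69, 2.91, 14.8 and 18.2 CPM in LH and 0 in cH, the midbrain gene en2a averaged 15.1 CPM in LH and 0.166 CPM in cH, and zic1 and ca8 averaged 181 and 20.5 CPM in LH, against 613 and 364 CPM in cH. In non-LH and non-cH eomesb averaged 72 and 101 CPM, en2a 33.1 and 36 CPM, and ca8 15.4 and 25.9 CPM. Both eomesb and en2a were thus higher in the negative cells of both lines than in LH. en2a lost its call without any of 5 libraries (adjusted p up to 0.0816) and zic1 without LH library 1 or 2 (0.0508 and 0.051) or without cH libraries 3 and 4 (0.0541). The part of these cells in the differences between LH and cH was not tested.

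Immediate-early genes, which respond to activity and to dissociation, were mixed: 3 of 22 tested rose and 6 fell. Over all genes 7.68% rose and 5.97% fell. With DESeq2 size factors in edgeR 1 of the 22 rose and 6 fell. egr4 averaged 1400.3 ± 293 CPM in LH and 307 ± 103 CPM in cH (log2 fold change 2.19 ± 0.28). Between the negative cells egr4 went the other way without overlap (log2 fold change -0.40, adjusted p = 0.184). In contrast fosab had 3021, 2573, 2324 and 2430.4 CPM in LH and 7886, 7217, 3753 and 4078 CPM in cH, and junba and btg2 averaged 371 and 614 CPM in LH, against 944 and 1497 CPM in cH. The adjusted p of fosab, 0.0229, was 0.0759 without LH library 3. In the summed shares of immediate-early and heat-shock genes, libraries 1 and 2 were above libraries 3 and 4 in all 4 groups. This difference was larger in cH and non-cH than in LH and non-LH. The summed immediate-early share was 1.26, 1.21, 0.993 and 1.12% in LH, against 1.96, 2.33, 0.9 and 1.11% in cH libraries 1 to 4, and 0.945, 0.961, 0.839 and 0.859% in non-LH, against 1.3, 1.46, 0.732 and 0.748% in non-cH. The heat-shock share was 0.892, 0.884, 0.714 and 0.763% in LH, against 1.39, 1.44, 0.502 and 0.597% in cH, and 0.854, 0.873, 0.774 and 0.816% in non-LH, against 1.52, 1.27, 0.586 and 0.634% in non-cH. The stress factor ddit3 was higher in LH, at 599.6 ± 60.5 CPM in LH and 212 ± 13.4 CPM in cH. Its list did not follow it as a whole: of 21 heat-shock and stress genes tested 4 rose and 1 fell, set against 7.68% and 5.97% of all genes. The median log2 fold change of that list was -0.60, with 6 of the 21 positive. With DESeq2 size factors in edgeR 1 of the 21 rose and 1 fell, and with DESeq2 4 rose and 6 fell. In edgeR 8 rose and 2 fell without cH libraries 1 and 2. There 1 rose and 9 fell without cH libraries 3 and 4. The ribosomal protein gene rpl3 averaged 1734 ± 161 CPM in LH and 798 ± 124 CPM in cH. Over its list of 83 tested genes, which also holds some S6 kinase genes, the median was -0.05 and 36 were positive. Between the negative cells the median of this list was 0.69. The mitochondrial ribosomal RNA mt-rnr2 had 48707, 34980.0, 67403 and 59372 CPM in LH and 151120.0, 54063, 26242 and 27194 CPM in cH, and without cH libraries 1 and 2 it was higher in LH (log2 fold change 0.98, adjusted p = 0.0357). What part these shares have in the differences was not tested.

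Few genes passed between the negative cells of the 2 lines, while some lists differed. Ribosomal protein genes took 1.42% to 1.70% of counts in non-LH and 0.851% to 1.33% in non-cH, with a median log2 fold change of 0.69. Cell-cycle genes took 0.307% to 0.365% in non-LH and 0.196% to 0.245% in non-cH, with a median of 0.47. The shares of peptide-processing and telencephalic genes did not overlap either, and were lower in non-LH (medians -0.14 and -0.26). Of 18837 genes tested, 13 (0.069%) passed an adjusted p of 0.05 in edgeR's quasi-likelihood test, 5 higher (0.0265%) and 8 lower (0.0425%) in non-LH; 1575 had an unadjusted p under 0.05, and DESeq2 called 275. The high mobility group gene hmgb1a averaged 94.9 CPM in non-LH and 7.85 CPM in non-cH, and 74.5 CPM in LH against 3.68 CPM in cH, so the same direction held in both gates. The nuclear lamina gene lmnb2 averaged 273 CPM in non-LH and 103 CPM in non-cH, and 202 CPM in LH against 38.7 CPM in cH. The ribosomal gene rpl10 averaged 162 CPM in non-LH and 52 CPM in non-cH. Lower in non-LH were mhc2dab, an antigen-presentation gene, at 0.114 CPM in non-LH and 24.8 CPM in non-cH, the factor sox1a at 0.982 CPM in non-LH and 14.5 CPM in non-cH, and the trafficking gene rab9a at 2.23 CPM in non-LH and 21.8 CPM in non-cH. sox1a was also lower in LH than in cH in every library, at 0.623, 0.856, 0.0906 and 0.0747 CPM in LH and 1.24, 17.1, 12.5 and 6.47 CPM in cH. Of these genes sox1a and rab9a were lower in LH without cH libraries 1 and 2 (adjusted p = 0.0444 and 0.00475), and without cH libraries 3 and 4 rpl10 was higher and mhc2dab lower in LH (adjusted p = 0.0418 and 0.00961); over all libraries none of the 4 passed between LH and cH.

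The differences between the negative cells were smaller than those between the positive cells. Negative cells show no fluorescence, so a difference that goes with driver line or reporter in the positive cells cannot be told apart by this comparison. Of the 1307 genes higher in LH, 4 were called the same way in the negative cells, and of the 1016 lower in LH, 1 was; their median log2 fold changes between the negative cells were 0.00 and -0.16. Of those also tested in the negative cells, 623 of 1232 (50.6%) of the higher genes and 664 of 1003 (66.2%) of the lower genes had the same sign there. Across the 16617 genes tested in both, the median size of the log2 fold change was 1.04 between LH and cH and 0.28 between non-LH and non-cH. The fold changes of the 2 comparisons correlated weakly across genes, which are not independent replicates (Pearson r = 0.0898, Spearman rho = 0.0733). In a test of the positive difference minus the negative one over all 16 libraries, 2463 of 20207 genes (12.2%) passed, 1551 higher (7.68%) and 912 lower (4.51%), including 1102 of the 1307 and 774 of the 1016. On simulated counts in which each group had its own spread, most calls of this test were false, so an unknown part of its counts is false. The genes above are called by the 8-library test, whose false calls on such counts were fewer but also above the 5% it aims at.

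**Figure D5:**
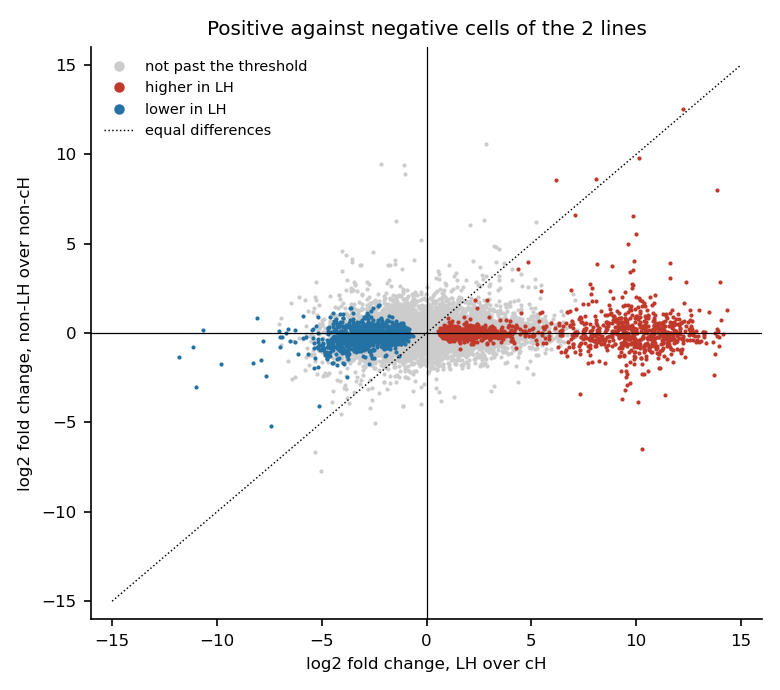
Log2 fold change of LH over cH (horizontal) against that of non-LH over non-cH (vertical) for the 16617 genes tested in both, with genes past an adjusted p of 0.05 in LH against cH coloured. The coloured genes lie along the horizontal axis and few reach the dotted line of equal differences.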

How the data were processed

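The authors deposited raw read counts per gene, whole numbers, for all 16 libraries in 1 table of 47038 rows. FastQC, STAR and the build GRCz11 are given, without roles, in the submitters' processing notes; the read counter and its use of strand are not given in the sources used here. Left out were 9 rows without a gene name or count and 9650 transfer RNA rows. Endings such as _1 were stripped and rows of a symbol summed, which gave 30502 symbols, 5880 of them from more than 1 row; reads of near-identical copies are uncertain. Between 71.0% and 83.8% of counts from 2 to 20 were even; no label says whether a pair counts as 2 reads, in which case counting intervals are too narrow, and they cover counting error only, as PCR reads are not independent molecules.

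Genes were filtered with filterByExpr, scaled with TMM over 16 libraries and tested with edgeR 4.0.16 (limma 3.58.1, R 4.3.3; quasi-likelihood, two-sided, Benjamini-Hochberg over all genes tested), LH against cH and non-LH against non-cH in 8 libraries each and the difference between these in all 16. The tests were tested on simulated data; with the spread of cH, most changes were not recovered there, large ones included. Folds against a group at 0, given as at least so many fold, use a floor of 3 counts over the group. They hold for that floor only, and cover neither the spread between libraries nor the lower detection of genes in cH. The replicates are pools of separate brains, per the labels.

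The gene lists and the members were chosen with earlier results of these data known. Genes named are the 10 largest changes each way with groups not overlapping, at least 10 CPM, an established symbol and a call in both tests; the 3 largest each way in the negative cells; the 2 smallest p of each list; a fixed set; and the genes slc6a3, abat, igf2b, uts1, cpe, npy8ar, cnr1, npy7r, onecut3a, nr5a2, vax2, gsx1, bsx, tcf7, tcf7l1a, sfrp5, camk2a, itpr2, gria2a, gria4a, grin1a, grm2b, kcnj10a, kcnj13, id1, cd74a, col1a2, en2a, jag2a, slc6a1a, neurod2 and junba, some of which the rule does not pick and which were chosen after their values were seen. Some genes that these rules pick are not described above, among them glsa, cd8a, gabrz, glrba, cacnb2b, exorh, gnat2 and hbaa1, and pkd2l1 of the fixed set. A few of them, such as glsa, still enter the counts of named genes below. Alternatives were other scaling, filters and tools (DESeq2 1.42.0, voom), a replicate block, rows as deposited and omitted libraries.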

Additional observations from a re-analysis of the deposited data

Results flagged for a closer look

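In 444 sets of 4 libraries (LH or cH; a gene's CPM, a list's share of counts, or a library measure), 47 had 1 library far from the other 3. Chance gives about 5% of sets, and 12 of the 47 were cH library 2 and 9 cH library 4.

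cH library 2 stood high for c2cd4a (286 CPM), camk2a (29.9), ghrb (41.4), hdc (12.4), sst3 (89.1), tac1 (91.7), tph1b (25.1) and vgf (146 CPM), and for vesicle genes (0.342% of counts) and sodium and calcium channel genes (0.154%). It stood low for hexb (231 CPM) and slc6a1a (107 CPM). cH library 1 stood high for slc6a1b (3842 CPM) and sox4b (43.4 CPM), and cH library 3 for otpa (16.5), rx3 (7.79), slc17a6a (0.0728) and tacr3a (5.64 CPM). cH library 4 stood high for avp (1.76), en2a (0.564), gad1b (7.31), kcna2b (0.0451), otpb (1.49), pomca (3.81), ryr3 (26.3) and tph2 (4.22 CPM), and low for rfx2 (105 CPM).

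LH library 1 stood high for avp (0.849), foxj1a (20.8), oxt (1.73) and sstr3 (16.8 CPM). LH library 2 stood high for jag2a (17.2), pmchl (10.6), slc18a2 (2.65), slc6a4b (1.92) and sst3 (9.41 CPM). LH library 3 stood high for shisa2 (0.846 CPM) and midbrain and hindbrain genes (0.14% of counts) and low for motile cilia genes (0.0216%). LH library 4 stood high for kcnj13 (0.0996), pmch (0.0498), rx3 (55.1), slc1a6 (122), slc6a4a (9.73) and th (1.24 CPM) and for Notch genes (0.0844% of counts), and low for sfrp5 (1.39 CPM).

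The difference LH minus cH was other than the difference non-LH minus non-cH for 2463 genes, in the 16-library test whose calls on simulated counts were mostly false.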

How the results depend on the processing

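LH against cH called 2323 genes, and the count was within 1.5 times with no low-count filter, with other scaling and with rows as deposited. It was 4604 in a 16-library fit, 4203 with DESeq2, 4292 with voom, 4582 without cH libraries 1 and 2, and 4263 without cH libraries 3 and 4, an omission chosen after seeing the data. Leaving out 1 library gave 1748 to 3125. No label says that a number marks a shared pool, and no same-number correlation passed 0.1: -0.0359 to 0.0192 between LH and cH, none the best of its library, and up to 0.0636 between the positive and negative cells of a line, where 5 of 8 libraries correlated best with their own number. The difference beyond the line, which combines these cells, was tested without pairing. With the replicate block the counts were 550 for LH against cH, 4 in the negative cells and 1498 beyond the line difference. No gene then passed among 23 neuropeptide, 29 feeding receptor and 7 catecholamine and histamine genes. Of 64 potassium channel genes 1 rose and 0 fell. Of 27 radial glia genes 20 still fell, and of 34 pan-neuronal genes 10 still rose. The share of calls higher in LH was 56.3%, 35.6% with the block and 75.5% without cH libraries 3 and 4.

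The 13 calls of the negative cells were 2 in the 16-library fit, 275 with DESeq2, 4 with voom, 137 with rows as deposited, and 6 to 11 without 1 library. Beyond the line difference, 2463 became 4148 with DESeq2, 4695 without cH libraries 1 and 2, 4977 without cH libraries 3 and 4, and 1880 to 3392 without 1 library. Of 123 named genes called in LH against cH no call turned round. Calls were lost by 23 without some single library, 73 with the block, 10 with no low-count filter, 9 without cH libraries 3 and 4, 4 without cH libraries 1 and 2 and at most 3 under the others. Of 45 named genes not called, 12 changed sign under some alternative: gad2, galn, ghrb, isl1, lef1, mt-rnr2, nkx2.1, rpl10, slc32a1, slc6a4a, tac3a and tacr3a. isl1 (2.30) and mt-rnr2 (0.98) were then called, both without cH libraries 1 and 2. Few genes of low level can be called in cH, where 13456 to 16853 symbols were detected.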
